A study of Rattus norvegicus with 12 samples.

Results

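The genes described here are 10 genes of glutathione synthesis and of the response driven by the transcription factor NRF2: Slc7a11, Gclc, Gclm, Gss, Gsr, Akr7a3, Nqo1, Txnrd1, Srxn1 and Hmox1. They were taken by name, through the RefSeq accession that the arrays give for each probe, with no cut on their values. The choice was made with earlier results of these data known. All 10 were found among the 16667 genes that could be named on the array, with 12 probes in all. Livers of 6 adult male Wistar rats fed an isocaloric low protein diet with 5% casein were compared with livers of 6 rats fed a control diet with 14% casein, each for 4 weeks. Each liver had a single-colour Agilent array of its own, and the arrays were run to look at the enzymes behind metabolites that answered to the diet in the same study. Strain, sex, tissue and time on diet were shared by all rats, and the labels name no other treatment and no pooling.

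Glutathione is a tripeptide of glutamate, cysteine and glycine, and the liver is its main producer. Cystine enters cells through the antiporter whose transport chain is Slc7a11, glutamate-cysteine ligase joins glutamate to cysteine, and glutathione synthetase adds glycine. NRF2, encoded by Nfe2l2, is held back by KEAP1 in unstressed cells, and under oxidative or electrophilic stress it binds antioxidant response elements beside many of these genes. Slc7a11 is also a known target of ATF4, which is made when amino acids run short, and Hmox1 is also controlled by the repressor BACH1.

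On each array 61.2% to 69.9% of the spots that were not controls were well above background, and the 75th percentile of signal was 942 to 1317 intensity units on low protein arrays and 944 to 1305 on control arrays. The levels below are normalised intensities, that is, the processed signal scaled so that the 75th percentile of each array is 1000; a level can be compared between rats for 1 probe, not between probes. The arrays lay on 2 slides, each with its own scan time in the file headers, with 4 rats of each diet on slide 1 and 2 of each on slide 2. On slide 1 the low protein arrays were all in row 2 and the control arrays all in row 1, so diet and row cannot be told apart there. On slide 2 all arrays were in row 1, with control arrays in columns 1 and 2 and low protein arrays in columns 3 and 4. Diet and column thus cannot be told apart on slide 2. The labels number the samples 1 to 6 within each diet, and p-values measure the spread between these 6. The number of arrays limits the precision, with a median standard error of 0.13 for a log2 difference. Transcripts of the hepatocyte markers Alb, Apoa1, Ttr, Cps1, Tf and Serpina1 were all measured, with summed levels of 478000 to 636000 in low protein livers and 567000 to 668000 in control livers. Of these, Apoa1 (log2 change -0.84 ± 0.14, SE, adjusted p = 0.00387, limma) and Cps1 (-0.68 ± 0.14, adjusted p = 0.0135) were lower in low protein livers, and whether this bears on the genes below was not tested.

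Transcripts of the cystine transporter, of both subunits of glutamate-cysteine ligase, of glutathione synthetase and of the aldehyde reductase Akr7a3 were more abundant in livers of low protein rats. Akr7a3 was 4.17-fold higher, Gclc 1.67-fold and Gss 1.64-fold, and Gclm had a log2 change of 1.00. The log2 change of Slc7a11 was 3.78, but its probe was well above background on only 3 of 6 control arrays, and the change was 1.34 after normexp background correction and 2.04 in the deposited values. Transcripts of Gsr, Txnrd1, Srxn1, Nqo1 and Hmox1 did not pass the test. In all, 5 of the 10 genes rose and 0 fell at an adjusted p under 0.05 by limma's moderated test (n = 6 rats per diet), against 3.48% of the 21858 genes tested that rose and 3.05% that fell (1428 genes or 6.53% changed). Only 11389 of these 21858 had a gene symbol, as all 10 genes did, and each other accession was counted as a gene. Shares over the named genes alone are not given here. The median log2 change of the 10 genes was 0.58, and that of all genes tested was -0.03. The 10 genes were chosen with earlier results of these data known, so their counts and median are a description. Without scaling between arrays the median of all genes was 0.11 and 76.2% of the changed genes were higher, against 53.3% with it, and the same 5 genes rose. Without low protein rat 1 and control rat 1, which are described further below, 4 of the 10 rose and Gss did not pass (log2 change 0.69, adjusted p = 0.0552). RNA of whole liver was measured, so fewer cells of a type and less RNA per cell cannot be told apart.

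**Figure D1:**
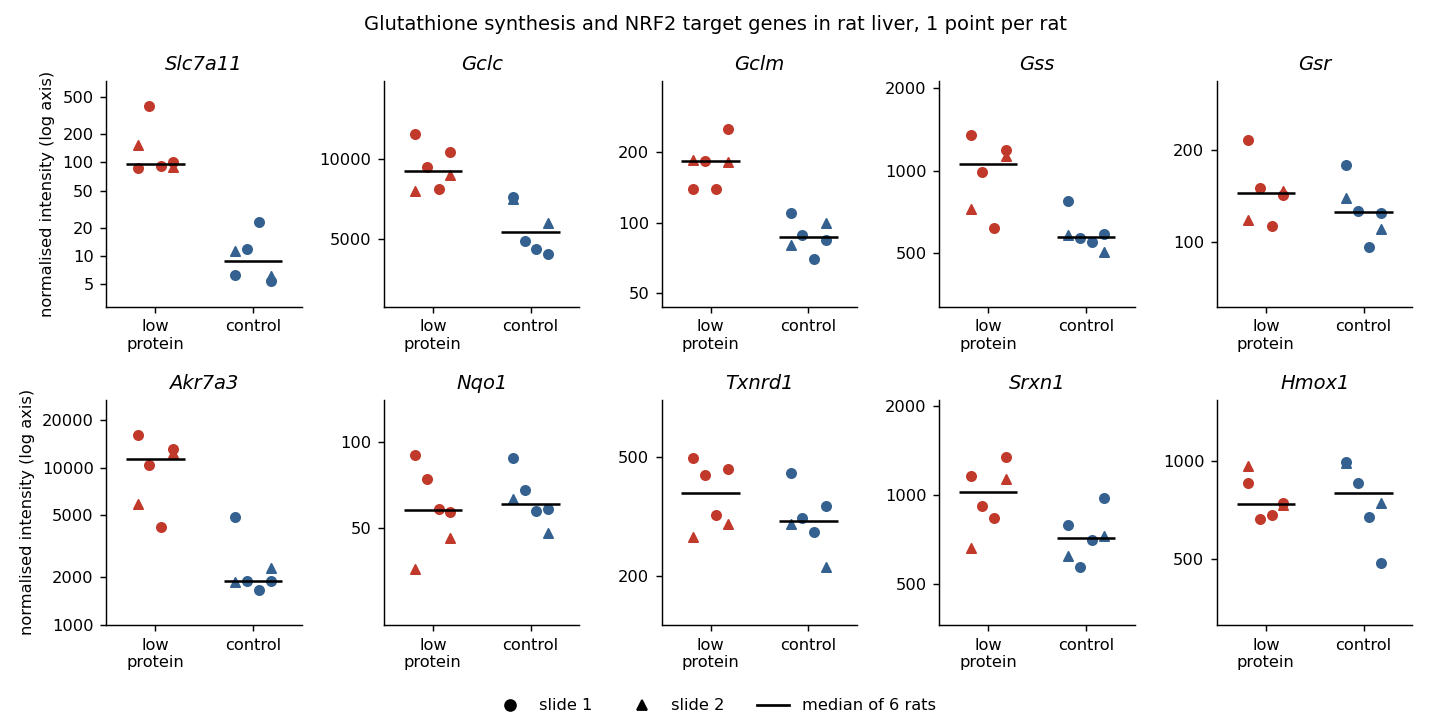
Normalised intensity of each of the 10 genes (log axis, 75th percentile of the array at 1000) in 6 low protein rats (left, red) and 6 control rats (right, blue), with 1 point per rat, circles for slide 1, triangles for slide 2 and a line at the median. Values of the diets were apart for Slc7a11, Gclc and Gclm, and overlapped for the other 7 genes.

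Slc7a11, the transport chain of the cystine and glutamate antiporter, was near the detection limit in control livers. Its brighter probe had a lowest, median and highest level of 88.0, 96.8 and 396 in low protein livers, against 5.40, 8.83 and 23.0 in control livers. Every low protein rat was above every control rat, with low protein rat 2 far above the other low protein rats and control rat 5 the highest of its diet. The log2 change was 3.78 ± 0.43 (SE; adjusted p = 0.000391, limma, n = 6 per diet). The probe was well above background on 6 low protein arrays but on only 3 of the 6 control arrays, and it was kept because of the low protein arrays, so the fold rests in part on dim spots. Without both rats numbered 1 the log2 change was 3.78. A second probe of Slc7a11 was well above background on 0 of the 12 arrays and was not tested. Its levels were 2.06 to 5.93 in low protein livers and 1.46 to 3.24 in control livers, which overlapped. Slc3a2, the chain that carries SLC7A11 and several other transport chains to the membrane, was also higher, with geometric mean levels of 3630 in low protein livers and 983 in control livers (log2 change 1.88 ± 0.13, SE, adjusted p = 7.48e-06, limma).

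Gclc and Gclm encode the catalytic and the modifier subunit of glutamate-cysteine ligase, the rate-limiting enzyme of glutathione synthesis. Gclc, read by a probe printed on 2 spots, had levels of 7533, 8978 and 12367 (lowest, median, highest) in low protein livers, against 4397, 5314 and 7150 in control livers. The diets did not overlap, but the gap was small, and low protein rats 5 and 3 lay just above control rats 1 and 2. The log2 change was 0.74 ± 0.16 (SE, adjusted p = 0.0173, limma), and 0.73 without both rats numbered 1. It was 0.93 on slide 1 and 0.35 on slide 2, which held low protein rats 5 and 6 and control rats 2 and 4. Gclm had levels of 139, 183 and 251 in low protein livers and 70.3, 86.8 and 110 in control livers. The diets were clearly apart, with low protein rat 4 the highest of all and low protein rats 1 and 3 the lowest of their diet. Its log2 change was 1.00 ± 0.15 (SE, adjusted p = 0.00272, limma), 0.68 after normexp and 1.13 without both rats numbered 1. The groups did not overlap in the rising direction for 3 of the 10 genes (Slc7a11, Gclc and Gclm), against 3% of all genes tested. In the falling direction this held for 0 of 10, against 1.99%. Of the 3, Slc7a11 was kept because of its low protein arrays, and its probe was well above background on only 3 of 6 control arrays. Within each rat, the log2 ratio of Gclm to Gclc was -5.71 ± 0.41 in low protein livers and -5.97 ± 0.27 in control livers (SD, n = 6 each). The ratio thus differed by 0.26 ± 0.20 (SE, exact permutation p = 0.219, adjusted p = 0.243 over 10 ratios), by 0.42 without low protein rat 1 (exact permutation adjusted p = 0.0186) and by 0.41 without both rats numbered 1 (adjusted p = 0.034). It was -0.08 after normexp.

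Gss, glutathione synthetase, which adds glycine in the second step, had levels of 616, 1057 and 1346 (lowest, median, highest) in low protein livers and 503, 574 and 772 in control livers. Low protein rats 3 and 5 lay within the range of the control rats, and control rat 1 stood above the other 5 control rats. The log2 change was 0.71 ± 0.18 (SE, adjusted p = 0.0383, limma). This call rested on most of the arrays: the adjusted p was 0.0624 to 0.0811 without any 1 of low protein rats 1, 2, 4 and 6 or of control rats 2, 3, 4, 5 and 6 (0.0719 without low protein rat 1), with log2 changes of 0.61 to 0.71.

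Akr7a3, known in the rat as aflatoxin aldehyde reductase and inducible by antioxidants that activate NRF2, had a larger log2 change than every other of the 10 genes except Slc7a11. After normexp it was 2.04 for Akr7a3 and 1.34 for Slc7a11, and in the deposited values it was 2.06 for Akr7a3 and 2.04 for Slc7a11, so the order of these 2 genes depends on the processing. Its levels were 4186, 11318 and 16145 (lowest, median, highest) in low protein livers and 1672, 1887 and 4865 in control livers. Of the control rats, 5 lay close together and control rat 1 was above low protein rat 3, the lowest of its diet. That overlap was of these 2 rats alone. The log2 change was 2.06 ± 0.35 (SE, adjusted p = 0.00513, limma), and 2.13 without both rats numbered 1.

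The genes that recycle glutathione and thioredoxin and that repair peroxiredoxins did not pass the test. Gsr, glutathione reductase, had levels of 113, 145 and 215 (lowest, median, highest) in low protein livers and 96.4, 126 and 178 in control livers, with a log2 change of 0.18 (95% confidence interval -0.18 to 0.55, adjusted p = 0.589, limma). Its diets overlapped widely, and rat 1 was the highest of both diets. Srxn1, sulfiredoxin, which reactivates oxidised peroxiredoxins, had levels of 662, 1023 and 1342 in low protein livers and 571, 717 and 976 in control livers. Its log2 change of 0.44 (95% confidence interval 0.06 to 0.82) had an unadjusted p of 0.0254 and an adjusted p of 0.158 by limma, and the diets overlapped. Low protein rat 5 was the only rat of its diet below the control median.

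Txnrd1, the cytosolic thioredoxin reductase, was read by probes of 2 transcript records. The brighter one had levels of 269, 377 and 496 in low protein livers and 215, 305 and 442 in control livers, with a log2 change of 0.26 (95% confidence interval -0.15 to 0.67, adjusted p = 0.476, limma). The other had levels of 54.1, 62.1 and 87.7 in low protein livers and 37.1, 51.6 and 72.8 in control livers, with a log2 change of 0.34 ± 0.16 (SE, adjusted p = 0.238 over all 25688 probes, limma). Both probes were higher on average in low protein livers and overlapped widely, and in both low protein rat 1 and control rat 1 were the highest of their diet.

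Nqo1, NAD(P)H quinone dehydrogenase, one of the most used marker genes of NRF2 activity, did not pass the test. Its levels were 35.7, 57.4 and 89.8 (lowest, median, highest) in low protein livers and 47.9, 60.7 and 88.0 in control livers, so the low protein range enclosed that of the controls. The log2 change was -0.12 (95% confidence interval -0.58 to 0.33, adjusted p = 0.796, limma), with 0.03 on slide 1 and -0.44 on slide 2, and 0.01 without low protein rat 5, the lowest. Hmox1, heme oxygenase 1, which breaks down heme and is abundant in liver macrophages, had levels of 661, 736 and 966 in low protein livers and 487, 798 and 991 in control livers. Its log2 change was -0.00 (95% confidence interval -0.37 to 0.37, adjusted p = 0.998, limma). The diets overlapped, with control rat 6 the lowest of all. The intervals of both genes allow changes of either sign, and without scaling both log2 changes were above 0 (0.01 for Nqo1 and 0.13 for Hmox1). The 7 markers of Kupffer cells and macrophages had a median log2 change of -0.37, 0 of 7 passed and 5 had an unadjusted p under 0.05 (limma). Of all 21858 genes tested, 4720 had an unadjusted p under 0.05. Summed levels of these 7 markers were 12800 to 18900 in low protein livers and 12800 to 26700 in control livers. Without control rat 6, 4 of the 7 fell. Their part in the value of Hmox1 was not tested. None of the measured markers of stellate cells and fibroblasts (7), endothelial cells (5), bile duct cells (4), neutrophils (2), lymphocytes (4) and red cells (3) passed limma's test, and 1 each of the endothelial, bile duct and neutrophil markers had an unadjusted p under 0.05. Summed levels of the bile duct markers were 192 to 290 in low protein livers and 230 to 396 in control livers, and those of the neutrophil markers were 150 to 190 in low protein livers and 84.8 to 192 in control livers.

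**Figure D2:**
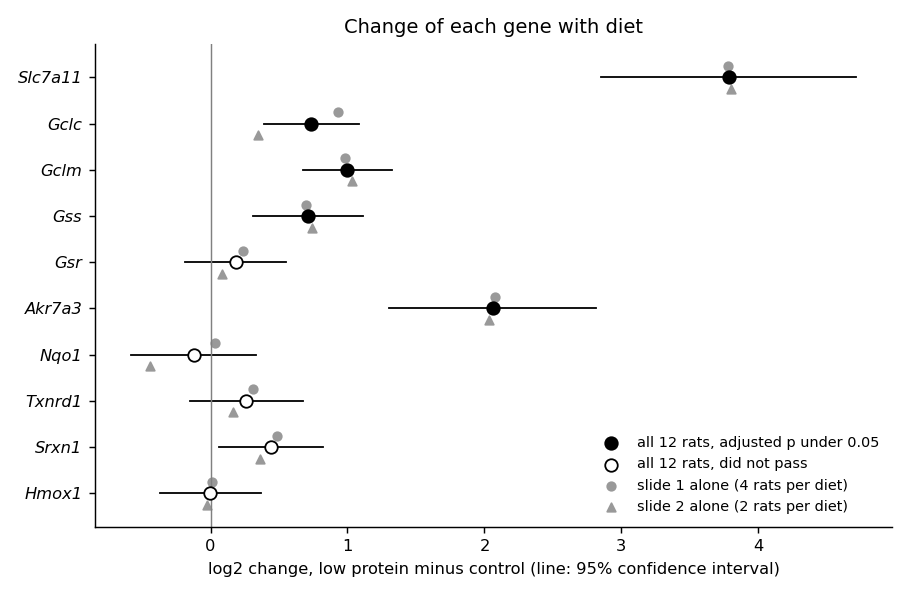
Log2 change (low protein minus control) of each gene with its 95% confidence interval over 12 rats, filled where the adjusted p was under 0.05, and in grey the change on slide 1 and on slide 2 alone. The 5 filled points run from 0.71 for Gss to 3.78 for Slc7a11, and the intervals of Gsr, Nqo1, Txnrd1 and Hmox1 include 0.

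Whether the other genes differed from Nqo1 in their change was tested within each rat, in tests chosen after the values were seen. The log2 ratios used do not depend on the scaling between arrays. Nqo1 had the lowest log2 change of the 10 genes (-0.12), so each ratio to it changed upward by more than its gene alone. The adjustment over 10 ratios does not allow for the choice of Nqo1 as the reference. Relative to Nqo1, Slc7a11 was higher in low protein livers by 3.91 ± 0.52 (SE), Akr7a3 by 2.18 ± 0.32, Gclm by 1.12 ± 0.29, Gclc by 0.86 ± 0.18 and Gss by 0.83 ± 0.19. The size for Slc7a11 rests on control spots of which only 3 of 6 were well above background, and was 1.46 after normexp and 2.15 in the deposited values (exact permutation adjusted p = 0.00433 in both). The exact two-sided permutation p was 0.00433 for Gclm (adjusted p = 0.00866) and 0.00216 for the other 4 (adjusted p = 0.00541 over 10 ratios), which is the smallest that 924 splits of 12 rats allow. For these 4 the ratio was higher in 6 of 6 low protein rats than in every control rat, and for Gclm in 5 of 6. Txnrd1, which did not pass by itself, also differed from Nqo1, by 0.39 ± 0.11 (SE, exact permutation p = 0.00649, adjusted p = 0.0108), with 4 of 6 low protein rats above all control rats. The SD of this ratio was 0.24 in low protein livers and 0.14 in control livers, against 0.37 in low protein livers and 0.34 in control livers for Txnrd1 alone. Gsr (0.31 ± 0.15, exact permutation adjusted p = 0.0893), Srxn1 (0.57 ± 0.25, adjusted p = 0.068) and Hmox1 (0.12 ± 0.27, adjusted p = 0.684) did not pass. After normexp, Srxn1 (0.54, exact permutation adjusted p = 0.0216) and Gsr (0.20, adjusted p = 0.0487) passed, as did Srxn1 in the deposited values (0.55, adjusted p = 0.0402). The exact adjusted p of Gsr was 0.0487 without low protein rat 2 and 0.034 without low protein rat 3. That of Srxn1 was 0.046 and 0.0487 without low protein rats 1 and 2, and 0.0495 and 0.0433 without control rats 4 and 6. With any other 1 rat left out neither passed, in 10 of 12 such tests for Gsr and 8 of 12 for Srxn1. The exact adjusted p there reached 0.187 for Gsr and 0.136 for Srxn1. Within slide 1, over 4 rats per diet, Slc7a11, Akr7a3, Gclm, Gclc and Gss were higher relative to Nqo1 by 3.74, 2.04, 0.95, 0.90 and 0.66. Each had an exact permutation adjusted p of 0.0571. For these genes every low protein ratio on slide 1 was above every control ratio there. Each unadjusted p was thus the smallest that 4 rats per diet allow, so the number of rats limited the adjusted p. Txnrd1 was higher relative to Nqo1 by 0.28 (exact permutation adjusted p = 0.143). Slide 2 held too few rats for this test. A ratio shows unequal change of its 2 genes and not that Nqo1 stayed the same.

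The same rats were often high or low across the 10 genes. Low protein rat 1 was among the 2 highest of its diet in 8 of the 10 genes and low protein rat 4 in 6. Low protein rats 3 and 5 were each among the 2 lowest in 7. However, low protein rat 5 was also among the 2 highest in 3 genes, and low protein rat 1 among the 2 lowest in 2. For Gss, the log2 level relative to the median control rat was 1.23 in low protein rat 1, 0.10 in low protein rat 3 and 0.33 in low protein rat 5. Slc7a11 followed another order, with 5.55 in low protein rat 2 and 3.38 in low protein rat 1. Among controls, rat 1 was among the 2 highest in 9 of 10 genes and rat 5 among the 2 lowest in 8. Such ranks were not made over all genes tested, so whether they are particular to these 10 genes was not tested. Low protein rat 1 (942) and control rat 1 (944) also had the lowest 75th percentile of signal of their diets and lay in the same column of slide 1. Their part in the levels was not tested. Without both, the genes that did not pass had log2 changes of 0.17 for Gsr, 0.28 for Txnrd1, 0.42 for Srxn1, -0.15 for Nqo1 and 0.04 for Hmox1, and none of them passed.

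**Figure D3:**
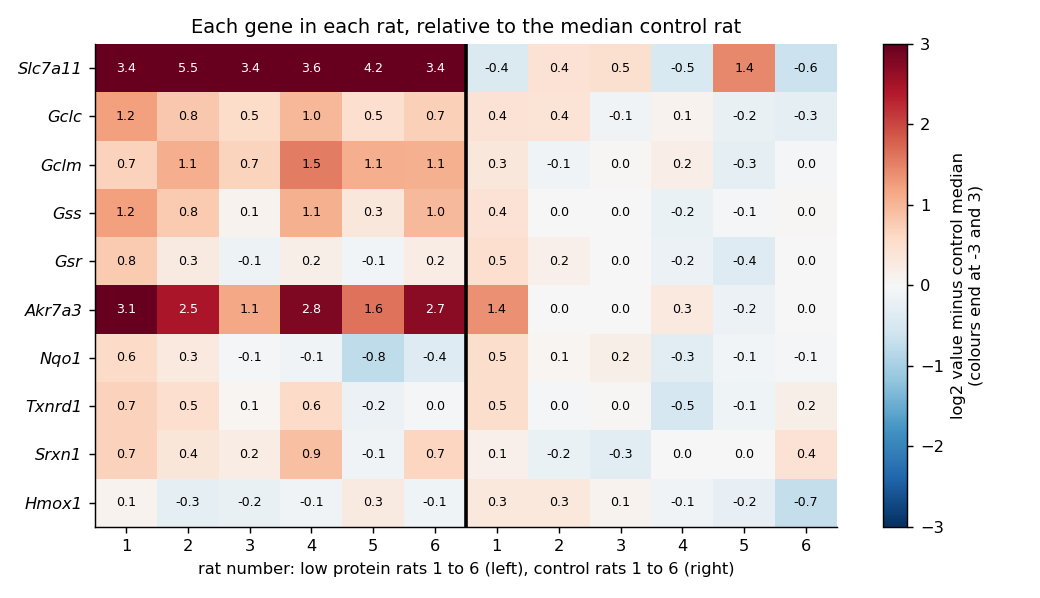
Log2 level of each gene in each rat less the median of the 6 control rats, low protein rats 1 to 6 on the left and control rats 1 to 6 on the right. Slc7a11 was 3.38 to 5.55 above the control median in low protein rats, and low protein rats 3 and 5 had the lowest values of Akr7a3 and Gss in their diet.

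With slide as a block, 5 of the 10 genes rose and 0 fell. The log2 changes on slide 1 and slide 2 alone were 3.78 and 3.80 for Slc7a11, 0.98 and 1.03 for Gclm, 0.70 and 0.74 for Gss and 2.07 and 2.03 for Akr7a3. For Gclc they were 0.93 and 0.35. Of the others, Gsr was at 0.24 and 0.08, Txnrd1 at 0.31 and 0.16, Srxn1 at 0.49 and 0.36, and Hmox1 at 0.01 and -0.03. Within slide 1 only Slc7a11 passed (adjusted p = 0.0347, limma) and within slide 2 none of the 10 did, with 2 rats per diet there; only 12 of all 21858 genes passed on slide 2.

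The regulators of NRF2 were measured for 8 of 9 genes listed, and 0 of 8 passed limma's test. An unadjusted p under 0.05 was found for 0 of 8, against 4720 of all 21858 genes tested. Nfe2l2, which encodes NRF2, had geometric mean levels of 3830 in low protein livers and 3800 in control livers (log2 change 0.01 ± 0.24, SE, adjusted p = 0.989), and its sign changed with the arrays used. Keap1, its inhibitor, was at -0.08 ± 0.11 (adjusted p = 0.729) and at 0.05 without scaling, and Bach1 at -0.24 ± 0.23 (adjusted p = 0.614).

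Among 28 measured further genes that NRF2 is known to control, 5 rose and 0 fell, against 3.48% and 3.05% of all genes tested. The median log2 change of these 28 genes was 0.17. The rises were in the carbonyl reductase Cbr1 (795 in low protein livers and 544 in control livers, log2 change 0.55 ± 0.07, SE, adjusted p = 0.000807), the retinal dehydrogenase Aldh1a1 (17200 in low protein livers and 4640 in control livers, 1.89 ± 0.34, adjusted p = 0.00676) and Pir, pirin (966 in low protein livers and 455 in control livers, 1.09 ± 0.20, adjusted p = 0.00719). The remaining 2, named after their values were seen, were Gsta3, a glutathione transferase (156 in low protein livers and 22.4 in control livers, 2.80 ± 0.66, adjusted p = 0.0261), and Ugt1a6, a glucuronosyltransferase (0.45 ± 0.11, adjusted p = 0.0274). The calls of both were lost without any 1 of low protein rats 2 and 6 or control rats 2, 3, 5 and 6, with log2 changes of 2.53 to 2.80 for Gsta3 and 0.41 to 0.45 for Ugt1a6. They were also lost without the filter on dim probes (adjusted p = 0.0679 for Gsta3 and 0.0824 for Ugt1a6). The log2 change of Gsta3 was 1.60 after normexp and 2.08 in the deposited values. The count was 8 without control rat 1, and 3 without any 1 of those same 6 rats. The thioredoxin Txn1 was at -0.12, the peroxiredoxin Prdx1 at 0.10 and the ferritin heavy chain Fth1 at -0.03; none passed, and they too were named after their values were seen.

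Of the genes listed for NADPH supply, which glutathione and thioredoxin reductases draw on, Pgd, phosphogluconate dehydrogenase, was at -0.85 ± 0.24 (SE, adjusted p = 0.0537), and Me1, malic enzyme and a known NRF2 target, was at 0.92 ± 0.26 (adjusted p = 0.0524). Both were named after their values were seen. They lay just outside the threshold and passed in several other settings, but not in all. After normexp Pgd was at -0.77 (adjusted p = 0.0318, limma) and Me1 at 0.92 (adjusted p = 0.0324). Pgd also passed without low protein rat 1 (-1.02, adjusted p = 0.0155) or control rat 4 (-0.96, adjusted p = 0.0455). Me1 also passed without low protein rat 3 (1.04, adjusted p = 0.0341) or control rat 5 (1.07, adjusted p = 0.028). In the other 10 of 12 fits that left out 1 array, each gene did not pass, with adjusted p up to 0.104 for Pgd and 0.11 for Me1. Pgd did not pass without scaling (-0.72, adjusted p = 0.06025). Me1 did not pass without both rats numbered 1 (0.75, adjusted p = 0.155) or with slide as a block (adjusted p = 0.0618).

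Of 19 measured genes of glutathione use and peroxide removal, 1 rose and 0 fell, against 3.48% and 3.05% of all genes tested. Their median log2 change was -0.05. The gene that rose was Glrx2, the mitochondrial glutaredoxin (1080 in low protein livers and 832 in control livers, 0.38 ± 0.10, SE, adjusted p = 0.0363). Its adjusted p was 0.053 to 0.0815 without any 1 of low protein rats 1, 4, 5 and 6 or of control rats 1, 2, 3, 4 and 6, and 0.0891 without both rats numbered 1. The call was also lost without scaling and without the filter on dim probes. None of 11 measured genes of glutathione breakdown and export passed limma's test (2 had an unadjusted p under 0.05, median -0.13), and Ggct, gamma-glutamylcyclotransferase, was at -0.34 ± 0.11 (adjusted p = 0.0822). None of 12 measured genes of heme handling passed either (1 had an unadjusted p under 0.05), and the biliverdin reductase Blvra was at -0.18 ± 0.07 (adjusted p = 0.164). Of all 21858 genes tested, 4720 had an unadjusted p under 0.05 (limma).

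Genes of cysteine supply and use changed in both directions, with 2 of 15 higher and 3 lower, against 3.48% and 3.05% of all genes tested. Besides Slc3a2, the taurine pathway decarboxylase Csad rose, with a log2 change of 0.89 ± 0.16 (SE, adjusted p = 0.00761). Enzymes that oxidise sulfur fell: the sulfite oxidase Suox (2540 in low protein livers and 3960 in control livers, -0.64 ± 0.08, adjusted p = 0.00104), the sulfide oxidase Sqor (1460 in low protein livers and 2120 in control livers, -0.54 ± 0.09, adjusted p = 0.00575) and the cysteine dioxygenase Cdo1 (5300 in low protein livers and 8550 in control livers, -0.69 ± 0.15, adjusted p = 0.017). Without scaling the calls of Sqor (-0.41, adjusted p = 0.0694) and Cdo1 (-0.56, adjusted p = 0.128) were lost, and that of Cdo1 also without the filter on dim probes (adjusted p = 0.0504). After normexp, or without control rat 4, 5 genes of this list fell. Csad and Cdo1 were named after their values were seen. Of 17 measured targets of ATF4, 11 rose and 0 fell, against 3.48% and 3.05% of all genes tested. Their median log2 change was 0.82. This list shares Slc3a2 with the one above, and Slc7a11 would belong to it. The asparagine synthetase Asns had geometric mean levels of 4910 in low protein livers and 183 in control livers (4.75 ± 0.35), and Phgdh, the first enzyme of serine synthesis, had 19000 in low protein livers and 158 in control livers (6.92 ± 0.30). Atf4 itself, named after its values were seen, had 16000 in low protein livers and 9080 in control livers (0.82 ± 0.12, SE, adjusted p = 0.00186, limma). These lists were drawn up with earlier results of these data known, so their counts are a description.

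**Figure D4:**
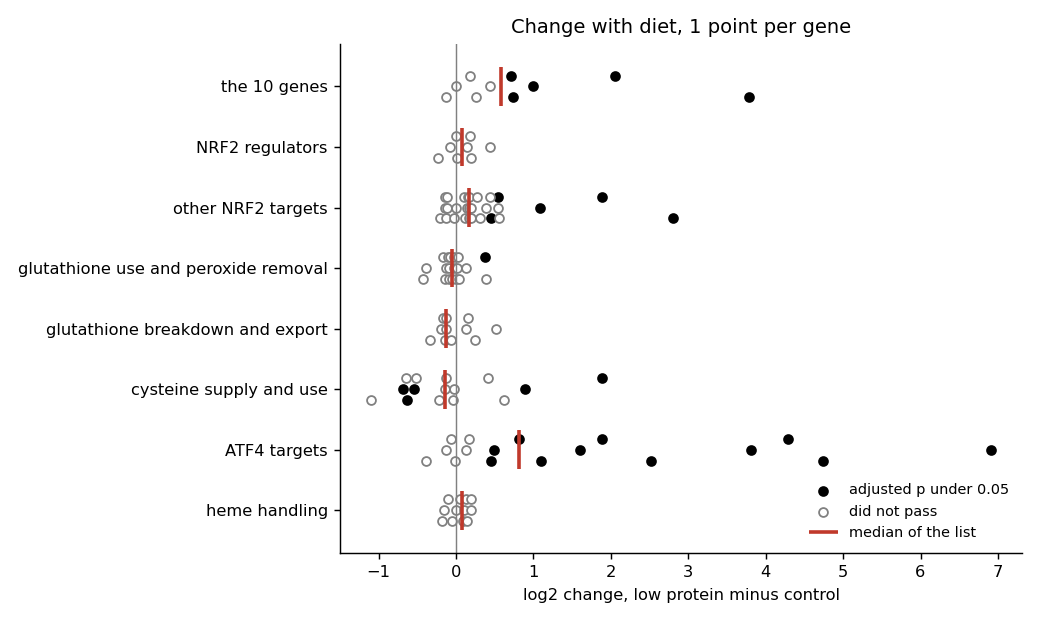
Log2 change (low protein minus control) of each measured gene in the 10 genes and in 7 lists of related genes, filled where the adjusted p was under 0.05, with a red line at the median of each list. The medians of the lists shown other than the 10 genes (0.58) and the ATF4 targets (0.82) lay between -0.14 and 0.17.

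Promoter windows of 250 bases before to 50 bases after the start were at hand for 8 of the 10 genes, in 9 windows because Txnrd1 has 2 starts (RefSeq, GRCr8). They were searched on both strands for the core of the antioxidant response element, TGACNNNGC, and for the element bound by ATF4 with C/EBP proteins, TGATGNAA. The antioxidant core was found in 2 of the 9 windows, of Gclm and of 1 start of Txnrd1, against 12.1% of 33469 promoter windows of the same length. The ATF4 element was found in 0 of the 9, against 3.98% of all. The windows of Gclm, which rose, and of Txnrd1, which did not pass, are shown because they hold the core, and that of Slc7a11 because it imports the cystine from which the pathway starts. Capitals mark the matched core, which lies on the opposite strand in both windows, from position -172 in Gclm and -78 in Txnrd1, counted from the start.
Gclm, chr2:213031885-213032184, plus strand: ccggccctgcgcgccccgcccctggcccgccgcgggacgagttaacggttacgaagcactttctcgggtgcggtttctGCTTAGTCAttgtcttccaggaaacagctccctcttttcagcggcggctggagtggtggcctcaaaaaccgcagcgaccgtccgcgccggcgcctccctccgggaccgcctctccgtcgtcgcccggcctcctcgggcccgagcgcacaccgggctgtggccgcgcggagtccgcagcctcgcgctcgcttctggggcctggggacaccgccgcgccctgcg
Txnrd1, chr7:22755855-22756154, minus strand: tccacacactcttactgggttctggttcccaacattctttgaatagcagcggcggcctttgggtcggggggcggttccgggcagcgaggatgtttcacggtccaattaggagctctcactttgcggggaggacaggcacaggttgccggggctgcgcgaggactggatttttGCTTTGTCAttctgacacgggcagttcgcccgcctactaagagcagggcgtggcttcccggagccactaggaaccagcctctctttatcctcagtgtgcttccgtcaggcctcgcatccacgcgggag
Slc7a11, chr2:136668215-136668514, minus strand: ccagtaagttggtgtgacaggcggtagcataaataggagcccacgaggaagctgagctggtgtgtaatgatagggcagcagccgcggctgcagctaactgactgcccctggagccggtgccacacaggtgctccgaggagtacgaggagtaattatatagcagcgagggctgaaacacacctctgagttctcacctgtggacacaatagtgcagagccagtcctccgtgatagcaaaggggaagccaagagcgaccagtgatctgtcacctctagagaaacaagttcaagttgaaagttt
A match is a run of letters and not a shown binding site, and enhancers farther away were not searched.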

How the data were processed

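Liver RNA of 12 rats was measured on single-colour arrays. The scans were read by the authors with Agilent Feature Extraction 12.0.3.1, per the file headers. Deposited intensity is linear, either background-subtracted within its array (processed signal) or raw (median signal), with no scaling across arrays. The series' value table holds the median signal (identical at 100% of spots).

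Of 45598 probes, 46.5% were named through unversioned RefSeq accessions matched to a GRCr8 gene table; the headers name another build (rn4). Values were log2 of processed signal less each array's 75th percentile. Spots marked as outliers (453 to 739 per array) were set missing and spots of a probe averaged. A probe was kept if 5 or more of the 6 arrays of either diet had it well above background, as for 11 of the 12 probes of the 10 genes. The brightest probe per gene was tested, 21858 genes in all. Of these, 11389 had a gene symbol, and probes without one were grouped by their accession and counted as genes. The test was limma 3.58.1 in R 4.3.3 (lmFit, eBayes, two-sided, Benjamini-Hochberg over all genes), called at an adjusted p under 0.05. A fit of all 25688 probes gave values for further probes. Every adjusted p is from limma unless called exact. The fit was tested on simulated data. Figures used Python 3.11.15 and matplotlib 3.10.9.

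The 10 genes, the lists of related genes and cell type markers, and the tests were chosen with earlier results of these data known. Named were the 10 genes, Nfe2l2, Keap1 and Bach1, up to 3 passing genes with the smallest adjusted p (otherwise the 1 with the smallest p) of each further list, and passing markers; others are marked as named after their values were seen. Alternatives were normexp correction (on the median signal, since the files give no mean signal), quantile or no scaling, the value table, other filters, outlier spots kept, probes per gene, spread, slide, rat number and each array left out; the removal of both rats numbered 1 and the ratios were added after seeing the data. Rat numbers were not taken as pairs. Metabolite and PCR data were not analysed here, and 1 gene of the related lists is not reported here.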

Additional observations from a re-analysis of the deposited data

Results flagged for a closer look

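Among the values of the named genes and of the further probes of the 10 genes, 72 sets of 6 rats of 1 diet were searched for a rat far from the rest, by the gap to its nearest neighbour as a share of the whole range. Chance gives about 1 such set in 20, and 6 were found. In low protein livers, rat 2 was the highest for Slc7a11, with a share of 0.633, at a log2 value of -1.34 against -3.51 to -2.71 in the others. Rat 3 was the lowest for Cbr1 (0.7024, at -0.50 against -0.32 to -0.25), and rat 1 the highest for the dimmer probe of Txnrd1 (0.6252, at -3.51 against -4.21 to -3.95). In control livers all 3 sets had rat 1 at the end. It was the highest for Akr7a3 (0.701, at 2.28 against 0.74 to 1.20) and for Gss (0.634, at -0.37 against -0.99 to -0.77), and the lowest for Cdo1 (0.909, at 2.38 against 3.18 to 3.26). On each of these genes control rat 1 thus lay nearest to the low protein rats, whose mean log2 values were 3.22 for Akr7a3, -0.06 for Gss and 2.41 for Cdo1, while for Slc7a11 its level was below the control median. The cause was not tested.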

How the results depend on the processing

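Slc7a11, Gclm, Gclc and Akr7a3 kept their direction and call without any 1 array, without both rats numbered 1, and with slide as a block. Leaving out 1 array gave log2 changes of 0.61 to 0.84 for Gss, -0.25 to 0.014 for Nqo1, -0.13 to 0.073 for Hmox1, -0.13 to 0.13 for Nfe2l2 and -0.081 to 0.24 for the ratio of Hmox1 to Nqo1. It gave 4 to 5 rising genes of the 10, 4 to 7 falling genes in the related lists (4 in the full set, 7 without control rat 4), and 856 to 1307 changed genes in all (442 to 739 higher, 414 to 704 lower), with the lowest 3 counts without control rat 3. With no filter on dim probes, 3 of the 10 rose; Gclc (0.74) and Gss (0.71) kept their values but lost the call, and 618 genes changed (326 higher, 292 lower). Without both rats numbered 1, Gss lost its call at 0.69, Hmox1 was at 0.041, and 928 genes changed, 466 of them higher.

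Within slide 1, 1 of the 10 rose, and Gclc (0.93), Gclm (0.98), Gss (0.70) and Akr7a3 (2.07) lost their calls; 164 genes changed, 82 higher and 82 lower, with 10 higher and 1 lower in the related lists. Within slide 2, 0 of the 10 rose, with Slc7a11 at 3.80, Gclc at 0.35, Gclm at 1.03, Gss at 0.74 and Akr7a3 at 2.03; 12 genes changed, 11 higher and 1 lower, with 4 higher and 0 lower in the related lists. These fits hold fewer rats. The sign turned within slide 1 for Nqo1 (0.035), Hmox1 (0.011), Keap1 (0.0044) and the ratio of Hmox1 to Nqo1 (-0.024), and within slide 2 for Nfe2l2 (-0.13). Without scaling it turned for Nqo1 (0.0087), Hmox1 (0.13) and Keap1 (0.052), and 892 genes changed, 212 of them lower, 2 of these in the related lists. Quantile scaling put Hmox1 at 0.0027. After normexp the ratio of Gclm to Gclc was -0.077 and 7 genes of the related lists fell. The cause of these turns was not tested.

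Rats with the same number correlated at 0.034 to 0.259 in their deviations. Rats with different numbers were not compared, so these values do not settle whether the numbers mark pairs, and they were not taken as pairs. With the rat number as a replicate block, 1412 genes changed and 5 of the 10 rose. The SE of Gclc was then 0.09, against 0.16 without the block, and that of Gclm was 0.15 in both fits. Slc7a11 was limited by dim spots on 3 control arrays.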
